A study of Mus musculus with 2 samples.

Results

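The hedgehog pathway of the adrenal gland was followed through 9 genes, namely the ligand Shh, its receptor Ptch1, the coreceptor Gas1, the signal transducer Smo, the antagonist Hhip, the inhibitor Sufu and the transcription factors Gli1, Gli2 and Gli3. They were taken by name from the gene tables, in which all 9 were found among 43346 Ensembl genes. The tissue was adrenal gland from C57BL/6J, an inbred mouse strain, taken from an adult female at 10 weeks of age, with no treatment named in the labels. Polyadenylated RNA of this 1 biological sample was sequenced as 2 technical replicate libraries, replicate 1 and replicate 2, the latter added in 2015 after the first. The libraries form a single group with no condition to compare, so the question asked here is at what level each hedgehog gene stood and how far the libraries bear each other out. An SD over n = 2 libraries and a test between them describe these libraries only, not the spread between animals.

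Hedgehog ligands bind Ptch1, which otherwise holds the membrane protein Smo inactive. Active Smo, working at the primary cilium, releases GLI transcription factors from Sufu, and Gli1, Ptch1 and Hhip are themselves classical targets of the pathway. In the adrenal gland, Shh is known from steroidogenic progenitor cells under the capsule, while the responding cells that carry Ptch1 and Gli1 are mesenchymal cells of the capsule.

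The libraries differed widely, and this touches every value that follows. Summed over all genes after rounding, replicate 1 held 28267651 expected counts and replicate 2 held 17376660. Genes of the mitochondrial genome took 40.1% and 10.6% of them, which left 13260900 and 14716667 counts on nuclear genes outside mitochondrial copies. Genes rich in G and C had lower counts in replicate 1. Among tested genes of under 45% GC the median log2 ratio of replicate 2 to replicate 1 was -1.59, and among those of 55% GC or more it was 3.56. Steroidogenic cortex genes led the marker lists with a summed 6963 and 26206 TPM (transcript abundance, that is counts per length scaled to a fixed sum), and of the kidney markers Umod, Slc34a1 and Miox stood at 0 counts in both libraries and Kap at 2 in each. Summed markers of capsule and stroma stood at 178 and 379 TPM. Markers of skeletal muscle (8.26 and 283 TPM), smooth muscle (6.11 and 153), fat (394 and 1992) and medulla (339 and 4492) were also present. With the gene GC trend removed, as described below, 3 of 4 skeletal muscle and 3 of 4 smooth muscle markers were called higher in replicate 2. So were 3 of 5 fat and 3 of 5 medulla markers, with 1 medulla marker lower, against 13.4% higher and 12.4% lower over all genes. The part of cell content in the hedgehog ratios was not tested.

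The ligand Shh and its receptor Ptch1 were both detected, with Shh above Ptch1 in replicate 1 and below it in replicate 2. Shh, Ptch1, Smo, Gas1 and Hhip reached at least 1 TPM in both libraries, which makes 5 of 9 hedgehog genes against 21.0% of all Ensembl genes and 63.3% of the 14358 genes tested, those with 20 or more counts over both libraries. Each of the 9 was tested. Replicate 1 alone put 5 of the genes at 1 TPM or more, and replicate 2 put 8 there, all but Gli2. Together the genes held 3677 and 4595 counts. TPM was higher in replicate 2 for each of the 9, in a library where mitochondrial genes took less of the fixed sum. Rescaled over nuclear genes, the 9 genes summed to 168 and 151 TPM. In bulk tissue, fewer cells of a type and less RNA per cell cannot be told apart.

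**Figure D1:**
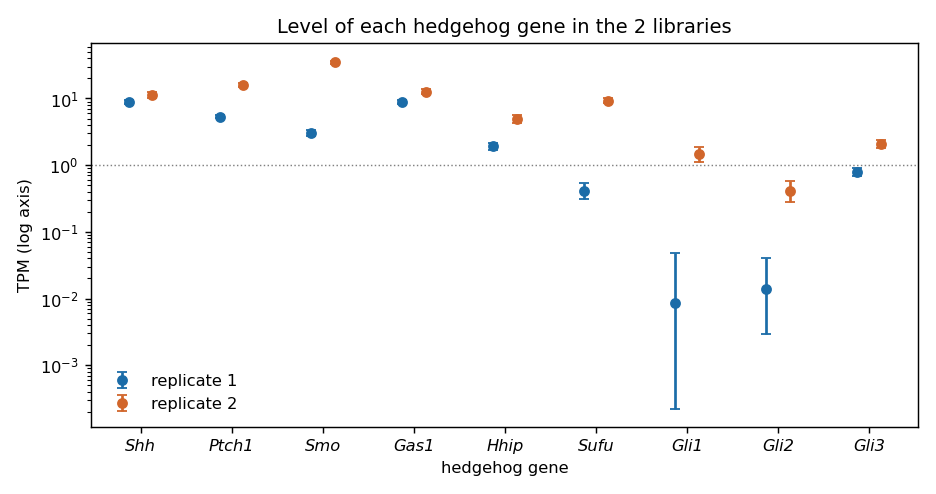
Level of each hedgehog gene in replicate 1 (blue) and replicate 2 (orange), in TPM on a log axis, computed from the rounded count, with 95% exact Poisson intervals that cover counting error only. The dotted line marks 1 TPM; Gas1 and Shh have the smallest gaps between libraries, and Gli1 and Gli2 lie farthest below the line in replicate 1 with 1 and 3 counts.

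Shh, the hedgehog ligand with the most counts, was counted 734 times in replicate 1 and 353 times in replicate 2, at 8.83 and 11.3 TPM (mean 10.1 ± 1.75 SD, n = 2). The 95% exact Poisson intervals were 8.20 to 9.49 and 10.2 to 12.5 TPM. Its gene (ENSMUSG00000002633) lies on the reverse strand at chr5:28456815-28467256 of GRCm38, the assembly also called mm10. Rescaled over nuclear genes, the level was 50.5 TPM in replicate 1 and 18.3 in replicate 2, the higher value now being that of replicate 1. After scaling of library sizes, replicate 2 held 0.356 times the Shh count of replicate 1 (95% interval 0.313 to 0.405), a log2 ratio of -1.49 (adjusted p = 4.12e-61, exact binomial test). The other ligands were scarce. Dhh, the ligand known from Schwann cells and testis, had 3 and 27 counts (0.04 and 1.00 TPM), beside the Schwann cell factor Sox10 at 0 and 35 counts, and Ihh, the ligand of cartilage and gut, had 0 counts and 1. The part of Schwann cells in the Dhh counts was not tested.

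Ptch1, the receptor and a target of the pathway, was the hedgehog gene with the most counts in replicate 1. It held 1220 counts there and 1311 in replicate 2, at 5.33 and 15.92 TPM (mean 10.6 ± 7.49 SD, n = 2), with intervals of 5.04 to 5.64 and 15.1 to 16.8. The gene (ENSMUSG00000021466) spans chr13:63508328-63573598 on the reverse strand. Scaled counts differed little, with a ratio of 0.796 (0.736 to 0.861), which misses the 2-fold minimum set for a call (log2 ratio -0.33). Over nuclear genes its TPM was 30.5 and 25.8.

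Ptch1 is known for alternative first exons, which change the start of the protein. The tables divided the gene's counts among 8 transcripts, of which 3 received counts in replicate 1 and 5 in replicate 2. A protein-coding transcript of 7002 bases and 24 exons carried 88.63% of Ptch1 transcripts in replicate 1 and 81.33% in replicate 2 by the authors' deposited shares. A second coding transcript of 7725 bases, which begins 1200 bases upstream, carried 5.66% and 9.83%. Another form, which begins 8925 bases upstream and is annotated as a target of nonsense-mediated decay carried 5.71% and 3.86%. The order of the leading form over the others was thus the same in both libraries. A 305-base transcript listed at 4.26% in replicate 2 rested on 1.03 estimated counts.

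Gas1, a membrane-anchored coreceptor that binds Shh and aids its signal, stood close to Shh in both libraries. Its counts were 827 and 439, its levels 8.98 and 12.69 TPM (mean 10.8 ± 2.62 SD, n = 2), and its single-exon gene (ENSMUSG00000052957) lies at chr13:60174405-60177365 on the reverse strand. The ratio of Gas1 to Shh in TPM was 1.02 in replicate 1 (0.920 to 1.13) and 1.12 in replicate 2 (0.974 to 1.30), and both intervals include 1. Replicate 2 held 0.393 times the scaled Gas1 count of replicate 1 (0.349 to 0.442), a log2 ratio of -1.35 (adjusted p = 4.42e-59, exact binomial test).

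The other coreceptors gave a different order in each library. Boc, which like Gas1 binds Shh, had 2.76 and 38.2 TPM, and its relative Cdon 1.07 and 2.71. Gas1 exceeded Boc by a TPM ratio of 3.25 in replicate 1 (2.88 to 3.68), whereas in replicate 2 the ratio of Gas1 to Boc was 0.332 (0.299 to 0.369). Boc exceeded Cdon in both, by 2.58 (2.19 to 3.03) and 14.1 (12.3 to 16.2). Which of Gas1 and Boc was the more abundant coreceptor therefore cannot be read from these libraries, while Boc above Cdon held in both. The proteoglycan Gpc3, which competes with Ptch1 for ligand, stood at 9.99 and 36.4 TPM, and the large receptor Lrp2 had 3 and 10 counts.

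Smo, the transducer that Ptch1 restrains, was the least alike between libraries among the 5 genes detected in both. It was counted 363 and 1565 times, at 3.04 and 34.94 TPM (mean 19.0 ± 22.6 SD, n = 2), so its SD exceeds its mean. The gene (ENSMUSG00000001761) lies at chr6:29735503-29761365 on the forward strand. Scaled counts were 3.19-fold higher in replicate 2 (2.85 to 3.59), a log2 ratio of 1.67 (adjusted p = 1.34e-107, exact binomial test). Ptch1 stood above Smo by a TPM ratio of 1.75 in replicate 1 (1.56 to 1.97) and below it in replicate 2, at 0.456 (0.423 to 0.491). The order of receptor and transducer thus differed between libraries of the same biological sample. Boc stood close to Smo in both libraries, with Boc to Smo TPM ratios of 0.908 (0.785 to 1.05) and 1.09 (1.02 to 1.17).

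Hhip, a membrane protein that binds and sequesters hedgehog ligands and is induced by the pathway, stood below Ptch1 in both libraries. It had 270 and 195 counts at 1.93 and 4.98 TPM (mean 3.46 ± 2.16 SD, n = 2), from a gene (ENSMUSG00000064325) at chr8:79965851-80058006 on the reverse strand. The ratio of Hhip to Ptch1 was 0.361 (0.315 to 0.412) and 0.313 (0.268 to 0.364), intervals that overlap. By contrast, the ratio of Shh to Ptch1 was 1.66 (1.51 to 1.82) in replicate 1 and 0.710 (0.630 to 0.799) in replicate 2. Scaled Hhip counts had a ratio of 0.535 (0.443 to 0.645), short of the 2-fold minimum (log2 ratio -0.90). Part of the Hhip level in replicate 2 was assigned to a short noncoding form by the deposited estimates. The coding transcript carried 95.34% and 65.85% of Hhip transcripts, and a 909-base processed transcript carried the rest, on 2.15 and 15.26 estimated counts. The coding transcript alone stood at 1.84 and 3.28 TPM, so the ratio of Hhip to Ptch1 in replicate 2 rests in part on this assignment.

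Sufu, which binds GLI proteins and keeps them from the nucleus, was scarce in replicate 1 and well detected in replicate 2. Its counts were 49 and 432 and its levels 0.41 and 9.28 TPM (mean 4.85 ± 6.27 SD, n = 2), with intervals of 0.307 to 0.548 and 8.43 to 10.2. The gene (ENSMUSG00000025231) lies at chr19:46396896-46488804 on the forward strand. Replicate 2 held 6.53 times the scaled count (4.85 to 8.96), a log2 ratio of 2.69 (adjusted p = 1.67e-54, exact binomial test). The full-length coding transcript of 4522 bases led in both libraries with 58.29% and 74.31%, while a 2663-base coding form took 41.71% on 14.22 estimated counts in replicate 1 and 11.91% on 34.13 in replicate 2.

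The 3 GLI proteins share a DNA-binding region of zinc fingers, so their reads could in principle be confused there. Gli1 acts as an activator, and Gli3 is best known as a repressor when hedgehog signal is low. The 60 coding bases in which Gli1 is most like both relatives are shown to let the reader judge how well reads can be told apart. They come from the GENCODE M21 transcripts, run 5′ to 3′ along the coding strand, and have capitals where the genes are not all alike. Gli1 is at chr10:127333727-127333786 (reverse strand), Gli2 at chr1:118842126-118842185 (reverse strand) and Gli3 at chr13:15720067-15720126 (forward strand) of GRCm38.
Gli1: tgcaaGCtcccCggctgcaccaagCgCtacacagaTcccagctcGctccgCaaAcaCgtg
Gli2: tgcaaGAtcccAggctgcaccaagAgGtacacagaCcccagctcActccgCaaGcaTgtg
Gli3: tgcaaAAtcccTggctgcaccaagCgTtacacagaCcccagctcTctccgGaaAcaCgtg
In this stretch 50 of 60 bases are the same in all 3 genes, and 10 differ in at least 1. Pairs are identical at 86.7% to 88.3% of the bases, and the longest identical run anywhere in the coding sequences is 25 bases, between Gli2 and Gli3. No hedgehog gene had a near-identical copy elsewhere in the annotation (95% identity over at least 50% of its longest transcript).

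Gli3 was the one GLI gene well counted in both libraries. It had 210 and 204 counts at 0.80 and 2.08 TPM (mean 1.44 ± 0.905 SD, n = 2), from a gene (ENSMUSG00000021318) at chr13:15463235-15730026 on the forward strand. Its scaled counts had a ratio of 0.719 (0.590 to 0.876), short of the 2-fold minimum (log2 ratio -0.48). A single coding transcript of 8170 bases carried 98.54% and 97.47% of it. Of the GLI genes it was the one not called between the libraries.

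Gli1, the pathway's most direct transcriptional readout, had 1 count in replicate 1 and 63 in replicate 2, at 0.01 and 1.45 TPM (mean 0.73 ± 1.02 SD, n = 2). Its interval in replicate 1 was 0.000219 to 0.0483 TPM and in replicate 2 1.12 to 1.86. The gene (ENSMUSG00000025407) lies at chr10:127329882-127341974 on the reverse strand. The scaled ratio was 46.7 with a counting interval of 8.07 to 1872 (log2 ratio 4.97, adjusted p = 6.53e-14, exact binomial test). Replicate 2 held nearly all of the Gli1 counts, and the intervals of the libraries do not overlap.

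Gli2, an activator that acts early in the response, had 3 and 33 counts at 0.01 and 0.41 TPM (mean 0.21 ± 0.283 SD, n = 2), from a gene (ENSMUSG00000048402) at chr1:118834132-119053619 on the reverse strand. The scaled ratio was 8.15 with an interval of 2.56 to 41.5 (log2 ratio 2.83, adjusted p = 1.92e-05, exact binomial test). The authors' deposited posterior mean for Gli2 was higher than the TPM beside it, at 0.44 (0.140 to 0.829) and 1.66 (0.711 to 2.82). That of Gli3 was 0.94 (0.719 to 1.22) and 2.51 (1.84 to 3.40), with bounds that overlap those of Gli2 in both libraries. The gaps in TPM given next are therefore wider than those by posterior mean. Gli3 exceeded Gli2 in TPM by 57.1 (19.3 to 279) in replicate 1 and by 5.08 (3.50 to 7.58) in replicate 2. Against Gli1 the ratio was 92.4 (16.4 to 3666) and 1.43 (1.08 to 1.93). Gli3 thus had the highest TPM of the GLI genes in both libraries. In replicate 2 its interval of 1.81 to 2.39 TPM overlapped that of Gli1, 1.12 to 1.86. In replicate 1 the gap rests on 1 count of Gli1 and 3 of Gli2.

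By mean TPM the order from high to low was Smo, Gas1, Ptch1, Shh, Sufu, Hhip, Gli3, Gli1 and Gli2. In replicate 1 it was Gas1, Shh, Ptch1, Smo, Hhip, Gli3, Sufu, Gli2 and Gli1, and in replicate 2 Smo, Ptch1, Gas1, Shh, Sufu, Hhip, Gli3, Gli1 and Gli2. Neighbours in the mean order were taken to differ where both libraries gave the same order with intervals that do not overlap. Of the 8 neighbouring pairs, Hhip over Gli3 was the single one to do so.

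Between the libraries, 6 of the 9 hedgehog genes were called, that is, they differed by at least 2-fold at an adjusted p under 0.05. The share over all 14358 tested genes was 64.2%, so the hedgehog count of 6 of 9 is near the background. Smo, Sufu, Gli1 and Gli2 were higher in replicate 2 (4 of 9, against 36.4% of all genes), and Shh and Gas1 were lower (2 of 9, against 27.8%). Ptch1, Hhip and Gli3 missed the fold minimum. The median log2 ratio of the 9 was -0.33, against 0.10 over all tested genes, whose 10th and 90th percentiles were -1.77 and 4.15. Scaled by total counts instead, which lifts the median of all genes to 1.24, Shh and Gas1 had log2 ratios of -0.35 and -0.21 and were no longer called, and Ptch1, Hhip and Gli3 turned to 0.81, 0.23 and 0.66.

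**Figure D2:**
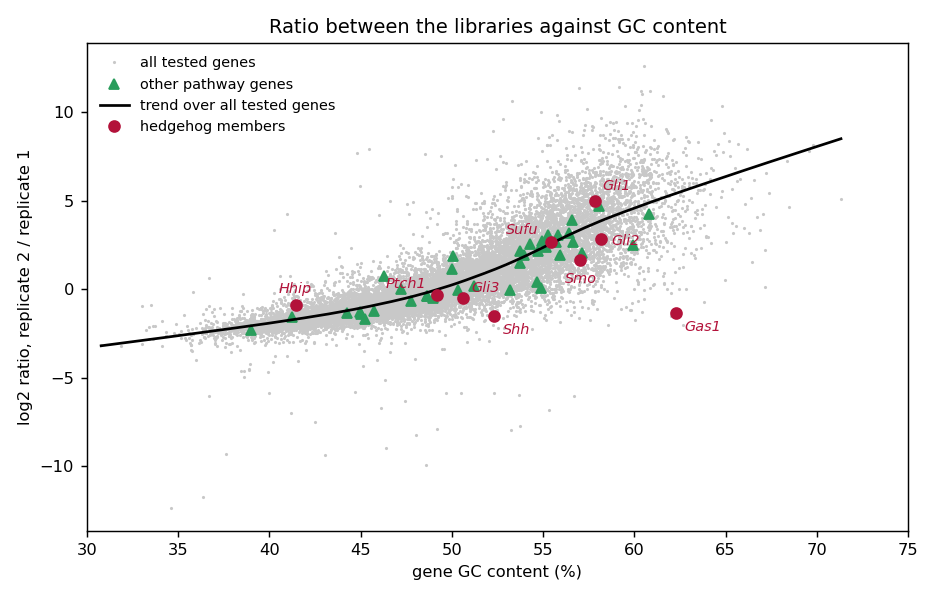
Log2 ratio of replicate 2 to replicate 1 against gene GC content in percent for all tested genes (grey), other hedgehog pathway genes (green triangles) and the 9 hedgehog genes (red), with the trend over all tested genes (black line). Gas1, at 62.3% gene GC (58.4% in its counted transcript) and a log2 ratio of -1.35, lies farthest below the trend of the 9.

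The ratio between libraries followed GC content over the whole table, with a Spearman correlation of 0.884 across 14274 genes, which are not independent replicates. Gene GC is here the length-weighted mean over annotated transcripts. Among the hedgehog genes it ran from 41.5% in Hhip to 62.3% in Gas1. The single counted transcript of Gas1 has 58.4%, and by counted transcripts Gli1 is the richest of the 9, at 59.0%. After the trend over all genes was removed, 3 of the 9 were called, against 25.8% of all genes, and all 3 were lower in replicate 2 (against 12.4%) with none higher (against 13.4%). Sufu then stood at a log2 ratio of 0.11 (adjusted p = 0.70), Gli1 at 1.25 (adjusted p = 0.354) and Gli2 at -1.04 (adjusted p = 0.589), by the exact binomial test, so none of these 3 was called any longer. Smo turned from 1.67 to -1.67. Shh moved to -2.59 and Gas1 to -6.76, and 17 of the 14274 genes lay lower than Gas1. With the trend on counted-transcript GC removed instead, Gas1 stood at -5.31, and 39 of 14312 genes lay lower.

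Gas1 and Shh are genes whose transcripts are uneven in base composition. The coding sequence of Gas1 is 72.4% G and C, while its 3′ UTR of 1382 bases has 41.9%. In Shh the coding sequence has 63.8% and the 3′ UTR of 1040 bases 35.4%. Hhip, at the other end, has 50.4% in its coding sequence and 36.7% in its 3′ UTR. A stretch of 60 coding bases from each end of this range shows the contrast, with G and C in capitals. The Gas1 stretch is the richest in its coding sequence (88.3%, chr13:60176510-60176569, reverse strand), and the Hhip stretch is the poorest in its own (31.7%, chr8:79992521-79992580, reverse strand), both 5′ to 3′ along the coding strand of GRCm38.
Gas1: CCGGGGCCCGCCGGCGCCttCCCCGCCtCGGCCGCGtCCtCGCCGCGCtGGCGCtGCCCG
Hhip: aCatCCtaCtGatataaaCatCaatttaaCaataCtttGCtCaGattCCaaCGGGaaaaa
Across the 9 genes, the 5 that were not called higher in replicate 2 had a 3′ UTR of 35.4% to 41.9% GC, and the 4 that were called higher had one of 43.0% to 54.3%. The coding sequences did not part the genes in this way, since those of Gas1 and Shh are the richest of the 9. This split was noticed after the values were seen and rests on 9 genes. Gli1, at 43.0%, has a 3′ UTR of 165 bases. The transcripts of Hhip, Shh and Gli1 are shorter in the annotation used for the tables, as given below. Part of their 3′ UTRs may therefore not have been counted.

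**Figure D3:**
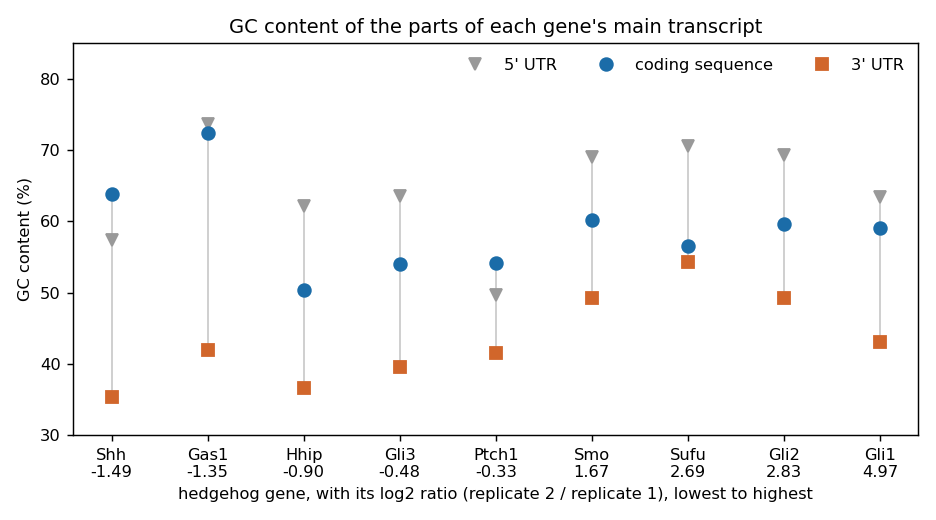
GC content in percent of the 5′ UTR (grey), coding sequence (blue) and 3′ UTR (orange) in the main transcript of each hedgehog gene, ordered by the log2 ratio of replicate 2 to replicate 1 printed under its name. The 5 genes on the left, with negative ratios, have 3′ UTRs of at most 41.9% GC, while their coding sequences range from 50.4% to 72.4%.

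A second measure of composition was therefore added after these values were seen, the GC content of the 400 consecutive bases that are poorest in G and C. In 8 of the 9 main transcripts this window lies wholly in the 3′ UTR, and in Gli1, whose 3′ UTR has 165 bases, it also takes in 235 bases of coding sequence and stop codon. Its GC content was 23.0% in Hhip, 27.5% in Ptch1, 29.3% in Shh, 30.3% in Gas1 and 33.8% in Gli3. In Gli2, Sufu, Smo and Gli1 it was 43.3%, 45.8%, 46.0% and 50.3%. The 5 genes not called higher thus had the lower values, which largely restates the 3′ UTR split above and is no separate evidence for it. The transcripts of Hhip, Shh and Gli1 are shorter in the annotation used for the tables (4582, 2692 and 3665 bases) than in the one that supplied sequences (9074, 2847 and 4057), so part of these windows, that of Hhip above all, may lie in bases the tables did not count.

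With the trend on this window removed, Gas1 stood at a log2 ratio of -0.14, Shh at -0.20 and Smo at -0.12, and none of them was called. The genes called were Ptch1, at 1.08, and Gli2, at 1.89, or 2 of 9, against 28.0% of all genes. Both were higher in replicate 2 (against 15.3%) and none was lower (against 12.6%). Over all 14312 genes with a value, the window followed the ratio less closely than whole-transcript GC did, with Spearman correlations of 0.830 and 0.904. For most of the 9 genes the difference between libraries thus hung on which measure of composition was removed. Gli2 went from -1.04 under the first measure to 1.89 under the second, Ptch1 from -0.30 to 1.08 and Sufu from 0.11 to 0.99, the last just short of 2-fold.

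**Figure D4:**
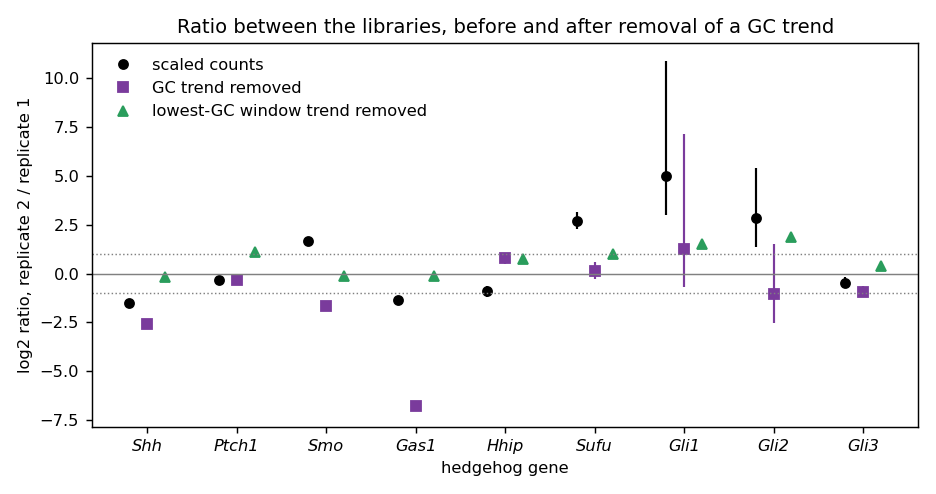
Log2 ratio of replicate 2 to replicate 1 for each hedgehog gene from scaled counts (black circles), after removal of the trend on gene GC (purple squares) and after removal of the trend on the lowest-GC window (green triangles). Vertical lines are 95% exact intervals for counting error, dotted lines mark a 2-fold difference, and Gas1 moves from -1.35 to -6.76 and to -0.14.

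The wider pathway was given by 43 other genes in lists by role. Of these, 38 had enough counts to be tested, and 24 reached 1 TPM in both libraries. Between libraries 20 of the 38 were higher in replicate 2, 7 were lower and 11 were not called, with a median log2 ratio of 1.31. Over all tested genes 36.4% were higher and 27.8% lower. After removal of the gene GC trend 2 were higher, 5 were lower and 31 were not called (13.4% and 12.4% over all genes), with a median of -0.19 against -0.03 over all genes.

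Genes that process and release the ligand stood at 1.90 TPM or less in replicate 1. In replicate 2 they stood at up to 17.6 TPM, where Shh stood at 11.3. Disp2, a relative of the transporter Disp1 that frees hedgehog ligand, led with 1.90 and 17.6 TPM. Disp1 itself had 0.41 and 8.44 TPM, Hhat, which attaches palmitate to the ligand, 0.94 and 3.54, and the secreted Scube3 0.70 and 11.8. All 5 members with enough counts were higher in replicate 2, against 36.4% of all genes, 54.3% of those of 50% to 55% GC and 91.3% of those of 55% or more, and after removal of the GC trend Scube3 alone was called, lower at -1.33. Among the receptors, Boc went from a log2 ratio of 1.94 to -0.89, no longer called, and Cdon and Gpc3 were not called in either setting, with log2 ratios of -0.50 and 0.01 from scaled counts.

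Regulators of Smo were higher in replicate 2 for 7 of 9 genes (against 36.4% of all genes) and lower for 1 (against 27.8%). The E3 ligase Mgrn1, which lowers Smo at the cell surface, had 1.14 and 34.8 TPM. The kinase Grk2, which phosphorylates active Smo, had 1.99 and 25.0 TPM. The cilium proteins Evc and Evc2, which pass on the Smo signal, had 0.65 and 9.98 TPM and 1.03 and 13.9. None of the 9 was called after removal of the GC trend.

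The genes that process GLI proteins were the most abundant of the pathway and were shared with other pathways. Csnk1a1 and the catalytic subunits of protein kinase A prime GLI proteins for cleavage, with Csnk1a1 at 104 and 139 TPM, Prkaca at 9.73 and 131 and Prkacb at 34.2 and 49.8. Ubiquitin ligase parts in the list included Cul3 (99.8 and 78.4 TPM), Spop (48.6 and 111), Fbxw11 (26.1 and 74.3) and Cul1 (41.5 and 58.6). Of the 14 genes 4 were higher, among them Prkaca and Tulp3, 5 were lower, among them Cul3 at -2.27 and Csnk1a1 at -1.70, and 5 were not called, which is near the shares of 36.4% higher and 27.8% lower over all genes. Tulp3, which carries the receptor Gpr161 into the cilium, kept its call after removal of the gene GC trend (log2 ratio 1.90, then 1.64). Its counted transcripts, at 52.9%, are richer in G and C than its gene GC. Once the trend on counted-transcript GC was removed instead, none of the 38 tested genes of the wider pathway was called higher. The call of Tulp3 thus held under gene GC and was lost under counted-transcript GC. The kinesin Kif7, a ciliary regulator of GLI proteins, changed from 2.51 to -2.05 after removal of the gene GC trend.

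Known targets other than Gli1, Ptch1 and Hhip did not move as one. The cyclins Ccnd1 (21.8 and 75.7 TPM) and Ccnd2 (34.8 and 122) led and were not called from scaled counts, with log2 ratios of -0.05 and -0.04. Bmp4 (0.18 and 3.46 TPM) was higher and Bcl2 (1.59 and 2.43) lower in replicate 2. The mesenchymal factors Foxf1 and Foxf2 had 5 and 9 counts and none. With the GC trend removed, Ccnd1 and Mycn were lower, at -1.53 and -2.23.

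**Figure D5:**
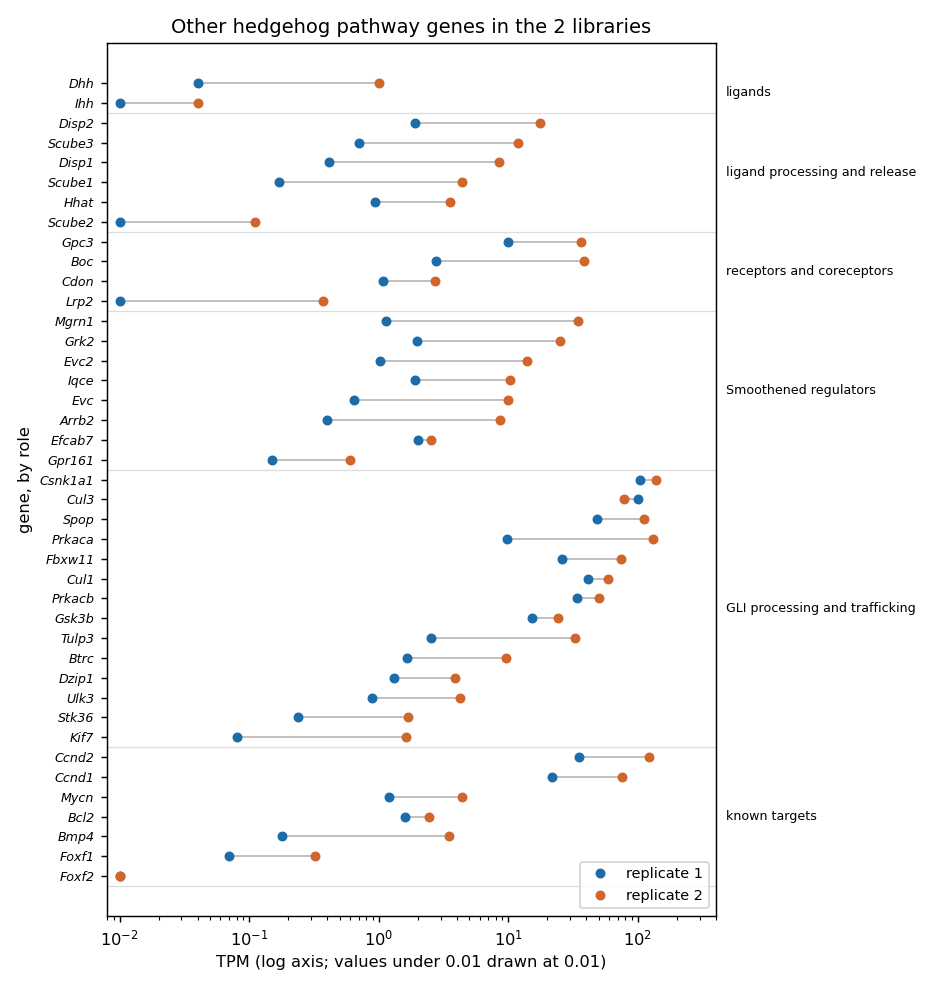
TPM on a log axis of most other hedgehog pathway genes in replicate 1 (blue) and replicate 2 (orange), grouped by role and ordered by mean level within each group. Values under 0.01 are drawn at 0.01; Cul3 is the single gene plotted higher in replicate 1 (99.8) than in replicate 2 (78.4).

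Genes of the primary cilium, the organelle in which Smo acts, were detected throughout. Of 16 genes 14 reached 1 TPM in both libraries, led by Ift52 at 32.3 and 43.4 TPM. By mean TPM the kinesin subunit Kif3a (7.18 and 18.3) and the transport protein Ift80 (9.12 and 14.7) came next. From scaled counts 5 were higher in replicate 2, among them Ift172 at 2.69, and 7 were lower, against 36.4% and 27.8% of all genes. After removal of the GC trend 14 of 16 were not called, Ift172 was still higher at 1.51 and Inpp5e was lower at -1.21, against 13.4% and 12.4% of all genes.

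Markers of the cells known to send and receive the signal were split in direction as well. Among capsule and stromal markers, Nr2f2 (28.3 and 31.6 TPM), Rspo3 (16.4 and 18.4) and Lum (18.5 and 21.8) were lower in replicate 2 by scaled counts, and Tcf21 (0.52 and 10.9), Pdgfrb (0.51 and 19.8), Col1a1 (1.32 and 19.0) and Thy1 (0.33 and 14.8) were higher, with the other 4 of 11 not called. Among subcapsular and zona glomerulosa markers, Dab2 (161 and 221 TPM), Vsnl1 (18.3 and 24.3) and Agtr1b (5.81 and 8.31) were lower and Cyp11b2 (2.89 and 256), Wnt4 (1.49 and 71.3) and Kcnk9 (0.32 and 37.0) higher, of 8. Over all genes the shares were 36.4% higher and 27.8% lower. After removal of the GC trend, 4 of the 11 capsule and stromal markers were higher and 2 lower, and 2 of the 8 subcapsular markers were higher and 1 lower (13.4% and 12.4% over all genes). Rspo3, Lum, Dab2, Vsnl1, Agtr1b and Wnt4 were then no longer called, and Col1a1 turned from 2.00 to -1.69. Col1a2, at 1.30, and Nr0b1, at -2.45, were then called. Gene GC of Col1a2 is 46.8%, while its counted transcripts have 55.6%, which the gene GC trend does not take into account. None of these markers was at 0 in both libraries. The lists summed to 198 and 658 TPM for the subcapsular zone and, as above, 178 and 379 for capsule and stroma. Their part in the hedgehog levels was not tested.

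Matching of sequence to known binding was limited to the promoter. RefSeq windows on GRCm38.p6 of 300 bases around the start (250 before and 50 after) were found for 7 of the 9 genes, all but Shh and Gli1. The window is built on the start of the leading transcript for Sufu and Gli2 and within 2 bases of it for Hhip. For Gas1, Smo, Gli3 and Ptch1 the leading transcript begins 170, 197, 257 and 1200 bases downstream of the start used, outside the window, and for Ptch1 that start is the one of the 7725-base form. The GLI motif, searched as GACCACCCA on both strands, was in none of the 7, exactly or with 1 mismatch, against 0.253% and 6.74% of all 32851 windows. This says only that these letters are not in these windows, which were rich in G and C at 56.3% to 76.3% against a median of 52.7% over all windows.

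The tested gene nearest to each hedgehog gene by TPM in both libraries was found on the scale log2(TPM + 0.1), with distance as the Euclidean distance over the 2 libraries. It was Rps2-ps10 for Shh (distance 0.036), Cnot9 for Ptch1 (0.038), Dcp2 for Gas1 (0.022) and Kdm5c for Smo (0.034). For Hhip it was Tmem170 (0.024), for Sufu Dusp8 (0.029), for Gli3 9530026P05Rik (0.043) and for Gli1 Grip2 (0.0093). Fbxo41 had the same 2 values as Gli2. With 2 libraries such nearness is common, and each hedgehog gene had 49 to 463 genes within a distance of 0.5.

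Exons of 5 of the genes overlap exons of a gene on the opposite strand, and whether counting used strand is not given in the sources used here. Shh shares 446 bases with 9530036O11Rik (1 count in each library) and 361 with Gm26894 (24 and 5 counts), and Gli1 shares 62 with Arhgap9 (5 and 23 counts) and 265 with Gm47200, which was not analysed here. The overlaps of Gli1 bear on a gene with 1 and 63 counts, which are uncertain for that reason. The partners of Hhip (Gm27820) and Gli3 (Gm6556) had at most 1 count, and that of Gas1 (Gm48488, 589 bases) was not analysed here.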

How the data were processed

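The members and all gene lists were chosen with earlier results of these data known. For each of the 2 libraries of 1 adrenal sample the authors deposited 1 table per gene and 1 per transcript. The deposited expected counts estimate fragments and were rounded for tests. TPM and FPKM, so named per the file headers, stand beside them, as do a posterior mean TPM with bounds, treated as a score. The share of each transcript is deposited in percent, and the deposited effective lengths were used to scale count intervals to TPM. Per the submitters' processing notes, the assembly was mm10 and the annotation GENCODE M4. The aligner, like the counter, is not given in the sources used here.

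GENCODE M21 on GRCm38 supplied coordinates, sequences and GC content, and symbols were found for 42462 of 43346 Ensembl genes. The 97 spike-in and 26248 other rows held 0 counts and were left out. The 14358 genes with 20 or more counts over both libraries were compared after TMM scaling (edgeR 4.0.16, R 4.3.3), by which 1 count of replicate 1 equals 1.35 of replicate 2. The test was an exact binomial test, two-sided and conditional on a gene's total, with Benjamini-Hochberg adjustment over all tested genes and calls at an adjusted p under 0.05 and at least 2-fold. It covers counting error between these libraries only. Log2 ratios use a prior count of 0.5. Trends were lowess fits with a fraction of 0.3. Near copies were sought with BLAST 2.17.0, and the test was tried on simulated data. Genes named besides the 9 were every ligand and receptor, the 3 highest of each list by mean TPM, called genes with a mean of at least 10 TPM (up to 6 a list) and the nearest gene by level. Others named were chosen after their values were seen. Some list members named by this rule are not reported here. Alternatives were other scalings (total counts, nuclear counts, DESeq2 1.42.0 size factors), count minimums of 10 and 1, and removal of GC or length trends. Removal of the trend on counted-transcript GC and on the lowest-GC window was added after the data were seen.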

Additional observations from a re-analysis of the deposited data

How the results depend on the processing

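No paired analysis was possible because both libraries belong to 1 group. DESeq2 size factors, nuclear counts, count minimums of 10 and 1 and the length trend left the number of hedgehog genes called within 1.5 times of 6, as did total counts. Scaling by total counts, which moved the median log2 ratio of all genes from 0.10 to 1.24, left 0 hedgehog genes, 1 other pathway gene and 567 genes lower in replicate 2, and turned Ptch1 to 0.81, Hhip to 0.23 and Gli3 to 0.66. Nuclear counts moved that median to 0.39 and the length trend to -0.24, with Ptch1 at 0.091 and Gli3 at 0.027 under the latter.

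Removal of the gene GC trend left 3 hedgehog genes called (0 higher), 7 other pathway genes (2 higher) and 3688 of all genes (1918 higher, 1770 lower), with Smo at -1.67, Hhip at 0.78 and Gli2 at -1.04. With GC and length trends removed the numbers were 3 (0 higher), 7 (2 higher) and 3532 (1711 higher, 1821 lower), with Smo at -1.52, Hhip at 0.94 and Gli2 at -0.76. With the trend on counted-transcript GC removed they were 3 (0 higher), 4 (0 higher, 4 lower) and 3119 (1589 higher, 1530 lower), with Smo at -2.04, Hhip at 0.77, Sufu at -0.026 and Gli2 at -0.77, and Gas1 at -5.31. With the lowest-GC window trend removed they were 2 (2 higher, 0 lower), 12 (8 higher, 4 lower) and 4004 (2194 higher, 1810 lower), with Ptch1 at 1.08, Smo at -0.12, Hhip at 0.75 and Gli3 at 0.38. The cause was not tested. The number of hedgehog genes at 1 TPM was 5 without replicate 2 and 8 without replicate 1.

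TPM rescaled over nuclear genes gave mean levels of 34.4 for Shh, 28.1 for Ptch1, 36.0 for Gas1, 9.56 for Hhip and 3.97 for Gli3, and the posterior mean for Gli2 was 1.05. Gli1, Gli2 and Dhh had 1 to 3 counts in replicate 1, which leaves their ratios imprecise. With 1 animal and no spread between animals measured, no level here carries a biological error.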
